A study of Rattus norvegicus with 26 samples.

Results

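A run of 4 neighbouring genes on rat chromosome 14 was followed through all 26 libraries of a study of hepatocytes before and after transplantation. The members were the features that lay wholly between positions 22142364 and 22619968 of chromosome 14. The 4 with the highest counts over the 10 libraries taken after transplantation were to be kept. Exactly 4 features lay in that window, of 32552 in the count files, so the count rank left none out. The window had been chosen by the colony-against-host difference, which was lower in colonies for its genes. That comparison is therefore given as a description: its calls follow from the choice and support nothing, and the tests that bear on the genes concern the cells before transplantation.

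The groups before transplantation were adult hepatocytes (4 libraries) and 3 kinds of immunopurified fetal hepatocytes, labelled LAP+ (4), LAP+/OC2- (4, numbered 1, 3, 4 and 5) and LAP+/OC2+ (4). The groups after transplantation were tissue cut by laser capture from the livers of the same 5 animals (numbered 242, 243, 246, 248 and 249), namely adult host tissue (5 libraries) and fetal-derived colonies (5). The labels use LAP and OC2 as sorting marks without spelling them out. The sources used here do not give strain, sex, age, the time after transplantation or how the captured areas were recognised. Laser-captured RNA and cell RNA went through different isolation and library kits, per the labels' protocols, so levels were compared only within a stage.

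Hepatocytes change their gene programme around birth, when they leave a fetal state that shares the liver with blood formation and take up the synthetic and detoxifying work of the adult organ. Many liver genes of the adult programme sit in arrays of neighbouring copies that arose by duplication and keep the same exon sizes. Copies that are alike in sequence can share reads, and a read that fits several copies may be dropped or given to 1 of them by a counting tool. The count files carry identifiers without symbols, and the reference table paired 0 of the 32552 identifiers with a symbol, so the genes are numbered here by position and neither a name nor a function is given.

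All 4 genes lay on the plus strand, in the coordinates of the count files (the sources used here do not give their genome build). Gene 1 (ENSRNOG00000001967) spanned 22142364 to 22155231, with 7 exons and 1274 exonic nucleotides (nt). Gene 2 (ENSRNOG00000001973) spanned 22192970 to 22619968, with 26 merged exons and 5462 exonic nt. Gene 3 (ENSRNOG00000046540) spanned 22375955 to 22534720, with 17 merged exons and 6405 exonic nt. Gene 4 (ENSRNOG00000001980) spanned 22553650 to 22591461, with 7 merged exons and 1904 exonic nt. The 426999 nt span of gene 2 thus enclosed genes 3 and 4, while the number of features that shared an exonic base with any of the 4 was 0.

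Genes 2, 3 and 4 shared a series of neighbouring exons of 149, 132, 88 and 220 nt, which occurred 2, 2 and 1 times in them. Of 32552 features, 6 held the series (0.0184%), and all 6 lay on chromosome 14. The 3 that were not members started downstream of the window, at 22645874, 22724070 and 22937421. Gene 1 had a different series, of 98, 127, 95 and 181 nt, which occurred in 8 features (0.0246%) on 3 chromosomes. Its neighbour upstream (ENSRNOG00000001957, 22072024 to 22089248) held the same series and also had 1274 exonic nt. The series were chosen after the files were seen, and sequence likeness between the genes was not measured. Counts of the 4 genes are therefore uncertain to the extent that reads fitted several copies.

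**Figure D1:**
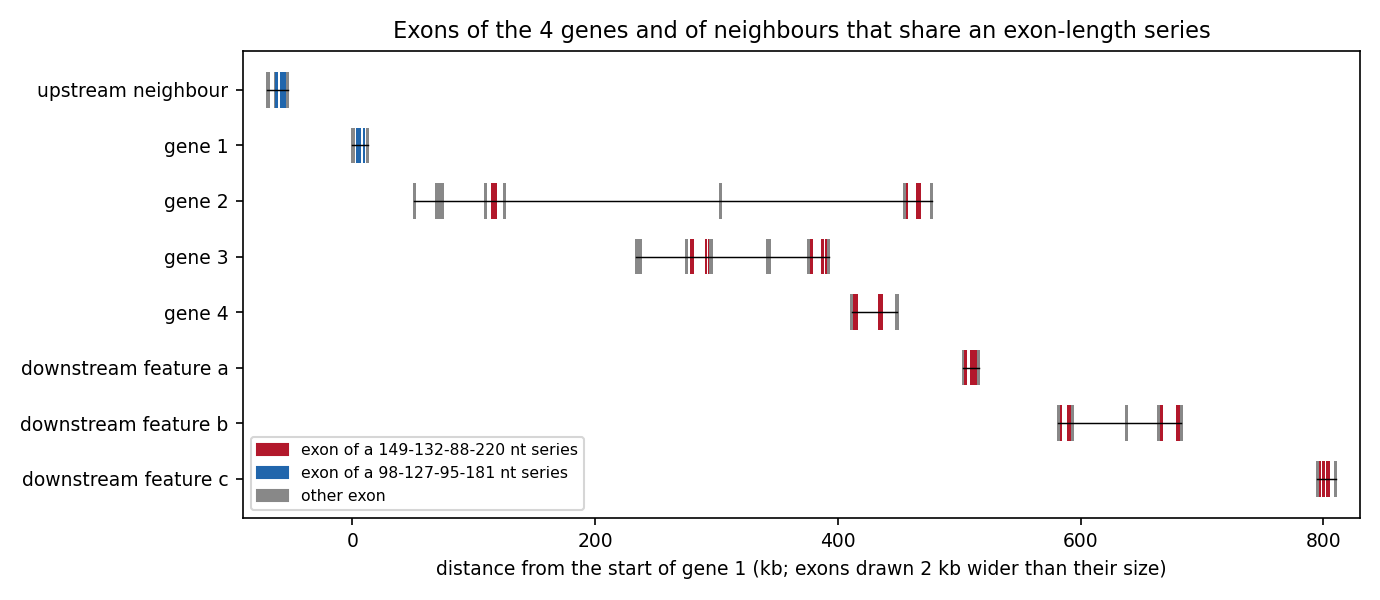
Exons of the 4 genes and of the neighbours that share an exon-length series, by distance from the start of gene 1 in kilobases, with 1 line per gene and exons coloured by series. The 149-132-88-220 nt series recurs within genes 2, 3 and 4 and downstream of them, gene 1 carries the other series, and genes 3 and 4 lie inside the span of gene 2.

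Total counts per library ranged from 7871347 to 16874438, and the lowest totals before transplantation were those of LAP+/OC2+. Mitochondrial transcripts took 38.9% to 78.6% of the counts in LAP+/OC2+ and 0.570% to 10.3% in the other 22 libraries. All 44 pairs of replicates differed by more than sampling noise (lowest chi-square per degree of freedom 4.91). The labels call the samples biological replicates without naming separate litters or cell isolations before transplantation, and p-values measure the spread between these samples. In bulk RNA, fewer cells of a type and less RNA per cell cannot be told apart. The labelled cell types could not be checked against markers, because no symbol was paired with an identifier.

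Before transplantation, all 4 genes were far lower in fetal than in adult hepatocytes, but gene 4 was much less so in LAP+ and LAP+/OC2- cells. Genes 1, 2 and 3 stood at 0.331% to 1.49% of their adult mean in every fetal group. Gene 4 kept 30.7% of the adult mean in LAP+ and 31.7% in LAP+/OC2-, and 2.53% in LAP+/OC2+. Levels are CPM, counts scaled to a common library size, with effective library sizes from the trimmed mean of M-values (TMM).

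Gene 1 measured 323, 206, 268 and 259 CPM in adult libraries 1 to 4. It measured 2.51, 1.68, 2.91 and 2.05 CPM in LAP+ libraries 1 to 4, and 3.80, 4.01, 3.82 and 4.05 CPM in LAP+/OC2- libraries 1, 3, 4 and 5. In LAP+/OC2+ libraries 1 to 4 it measured 1.81, 2.61, 1.47 and 1.15 CPM. The lowest adult library was thus above every fetal library, and LAP+/OC2- was above every LAP+ library. The mean of the fetal groups fell by 6.74 in log2 units against adult (SE 0.14, adjusted p = 3.7e-15, edgeR quasi-likelihood test with Benjamini-Hochberg adjustment over 13818 tested features).

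Gene 2, the long gene that encloses 2 of the others, was the least abundant of the 4 and the nearest to the counting floor in fetal cells. It measured 133, 152, 101 and 132 CPM in the adult libraries. The LAP+ libraries held 0.564, 0.221, 0.477 and 0.451 CPM, and the LAP+/OC2- libraries 1.45, 1.75, 0.731 and 0.642 CPM. In LAP+/OC2+ it measured 1.29, 1.42, 0.652 and 0.345 CPM, which came from 3 to 6 reads a library. Every adult library lay above every fetal one, and the fetal mean fell by 7.44 in log2 units (edgeR adjusted p = 3.6e-14, SE 0.22). The levels in LAP+ rested on 5 to 11 reads a library. By total counts without TMM, 3 reads correspond to 0.178 to 0.381 CPM across the 26 libraries. That range is too low for LAP+/OC2+ libraries 1, 2 and 3 on the TMM scale of the levels. There, 5, 6 and 4 reads gave the 1.29, 1.42 and 0.652 CPM of gene 2, so these levels lay nearer to the floor than the range implies.

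Gene 3 was the most abundant of the 4 in adult hepatocytes by CPM, at 1052, 769, 914 and 1068 CPM. The LAP+ libraries held 5.38, 3.09, 6.30 and 5.61 CPM, and the LAP+/OC2- libraries 11.2, 15.3, 11.6 and 9.93 CPM. In LAP+/OC2+ it measured 7.74, 6.41, 4.89 and 3.80 CPM. No LAP+ library reached the lowest LAP+/OC2- library, whereas LAP+ and LAP+/OC2+ overlapped. The fetal mean of gene 3 fell by 7.09 on the log2 scale against adult (SE 0.18, edgeR adjusted p = 8.7e-15).

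Gene 4, the member farthest downstream by its start, was the exception. Its adult libraries held 554, 596, 457 and 515 CPM. LAP+ held 150, 182, 168 and 152 CPM, and LAP+/OC2- held 178, 151, 179 and 165 CPM. LAP+/OC2+ held 16.5, 17.6, 11.3 and 8.40 CPM, from 64 to 74 reads a library. The libraries fell into 3 bands that did not overlap, with adult highest, LAP+ and LAP+/OC2- together in the middle and LAP+/OC2+ lowest. The log2 difference of gene 4 from adult was -1.70 for LAP+ (SE 0.19, edgeR adjusted p = 8.1e-07), -1.66 for LAP+/OC2- (SE 0.19, adjusted p = 1.1e-06) and -5.32 for LAP+/OC2+ (SE 0.22, adjusted p = 4.1e-12).

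**Figure D2:**
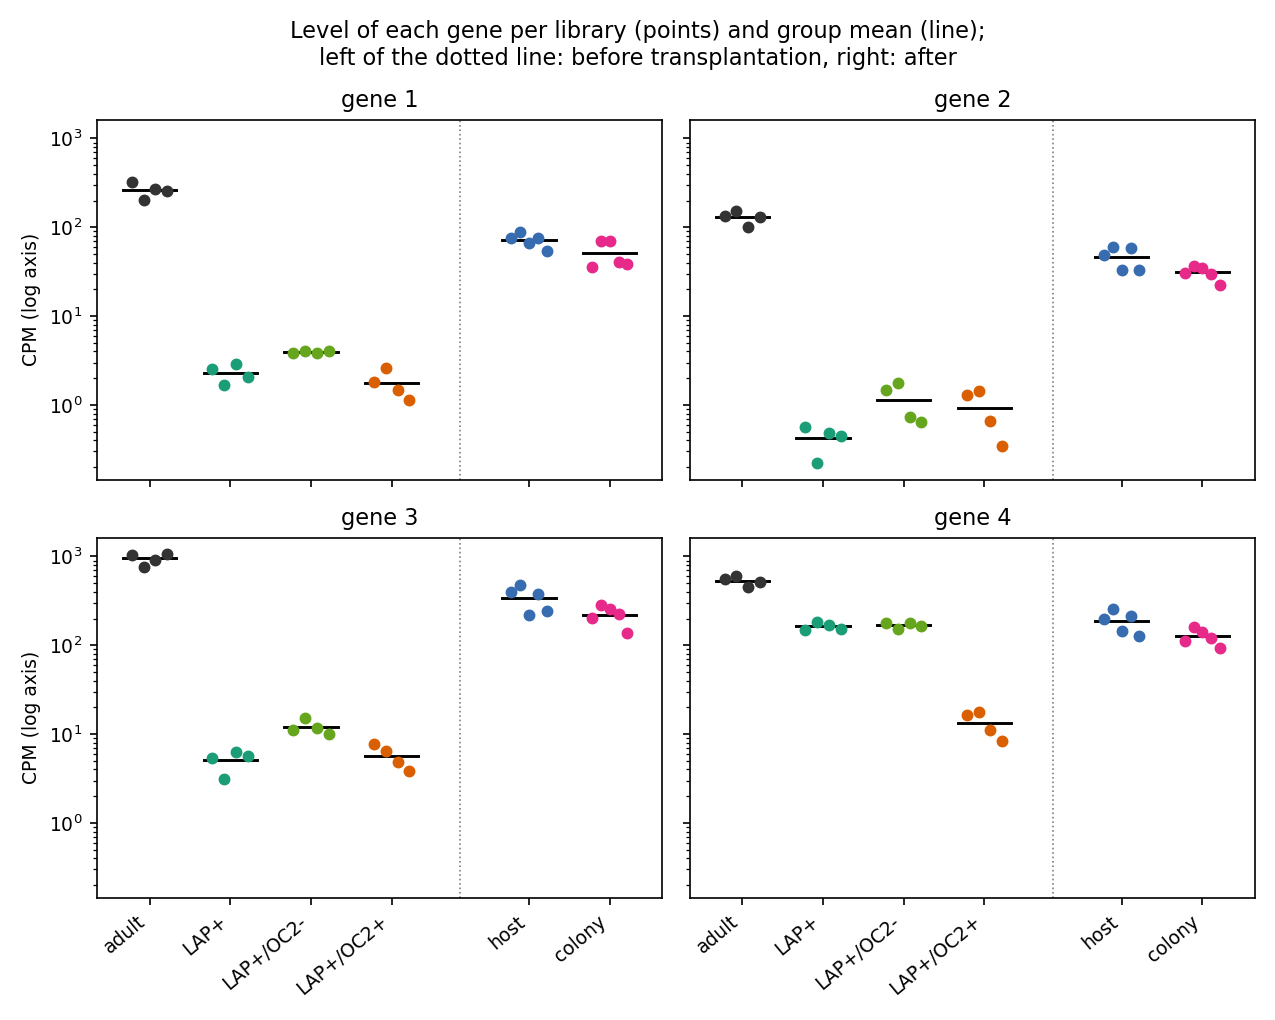
CPM of each of the 4 genes on a log axis, with 1 point per library and a line at the group mean, for the groups before (left of the dotted line) and after transplantation (right). Genes 1, 2 and 3 sit below 16 CPM in all 12 fetal libraries, whereas gene 4 lies between 150 and 182 CPM in LAP+ and LAP+/OC2- and below 18 CPM in LAP+/OC2+.

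All 4 genes were called lower than adult, at an adjusted p under 0.05, for the fetal mean and for LAP+, LAP+/OC2+ and LAP+/OC2- taken alone. Of all features tested, 35.3%, 28.5%, 38.6% and 28.4% were called lower in these comparisons, so the call by itself was common. The sizes were less common. Only 0.724%, 0.499% and 0.586% of features had a lower difference than genes 1, 2 and 3 in the fetal mean, against 5.27% for gene 4. The median over the 4 genes was -6.91 and that over all features 0.056. Every adult library exceeded all 12 fetal libraries for 4 of 4 genes, which held for 20.4% of all features. When mitochondrial features were left out and libraries were scaled to their totals without TMM, the median over all features rose to 0.63, and the features called in the fetal mean went from 4882 lower and 5128 higher to 3121 lower and 7732 higher. The 4 genes were then still called lower, at -6.20, -6.89, -6.54 and -2.34.

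Adult library 2 stood apart from the other adult libraries, across the counted features at large and also along this stretch of the chromosome. Its pairs with adult libraries 1, 3 and 4 had a chi-square per degree of freedom of 98.4, 115.2 and 115.5 across features. Pairs among adult libraries 1, 3 and 4 had 20.2 to 37.7. It had the lowest adult level of genes 1 and 3 and the highest of genes 2 and 4. The upstream neighbour measured 1676, 9.16, 2280 and 2179 CPM in adult libraries 1 to 4, so library 2 held a small fraction of the others. The feature at 22724070 measured 116, 234, 75.0 and 104 CPM, and that at 22937421 measured 9.0, 49.5, 4.74 and 6.29 CPM, so library 2 was the highest there. Without this library, all 4 genes remained called lower in all 4 comparisons with adult. The part of this library in the other values was not tested.

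Gene 4 was the one member called between LAP+/OC2+ and LAP+. There, gene 4 fell by 3.62 in log2 units (edgeR adjusted p = 5.6e-10, SE 0.21), and the other 3 genes did not pass the test. Their differences were -0.45 for gene 1 (SE 0.25, edgeR adjusted p = 0.12), 0.93 for gene 2 (SE 0.51, edgeR adjusted p = 0.12) and 0.13 for gene 3 (SE 0.25, edgeR adjusted p = 0.66). Thus 1 of 4 genes was called lower, against 35.9% of all features. A difference between genes in their response was not tested. The sign for gene 3 was not stable, and under some of the alternatives given in the closing section gene 1 was called lower or gene 2 higher.

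Between LAP+/OC2+ and LAP+/OC2-, 3 of 4 genes were called lower, against 36.6% of all features. Gene 4 fell by 3.67 in log2 units (edgeR adjusted p = 4.8e-10, SE 0.21), and the differences were -1.23 for gene 1 (SE 0.25, edgeR adjusted p = 3.0e-04) and -1.11 for gene 3 (SE 0.25, edgeR adjusted p = 8.1e-04). Gene 2 differed by -0.51 (SE 0.45, edgeR adjusted p = 0.33). Only 1.42% of features had a lower difference than gene 4, against 23.0% and 25.2% for genes 1 and 3. Every LAP+/OC2+ library was below all 12 others before transplantation for gene 4, which held for 22% of features.

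The LAP+/OC2+ values stood beside their high mitochondrial shares of 78.6%, 73.7%, 57.6% and 38.9% in libraries 1 to 4. All 4 genes were lowest in library 4, which had the smallest share. Gene 3 was highest in library 1, which had the largest, and genes 1, 2 and 4 were highest in library 2. As CPM of nuclear features without TMM, LAP+/OC2+ held 25.1 ± 9.04 of gene 4 (SD, n = 4), against 225 for LAP+ and 223 for LAP+/OC2-. On that scale the medians over all features moved from -0.18 to 0.35 against LAP+/OC2- and from -0.10 to 0.37 against LAP+. The features called against LAP+/OC2- moved from 5062 lower and 4261 higher to 3268 lower and 6027 higher, and those against LAP+ from 4956 lower and 4417 higher to 3410 lower and 6074 higher. Gene 4 was still called lower, at -3.18 and -3.19, and genes 1 and 3 were still called lower than in LAP+/OC2-, at -0.77 and -0.63. The part of the mitochondrial share in these differences was not tested.

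The comparison of LAP+/OC2- with LAP+ had the fewest calls of the 8 fitted, with 0.391% of features called in either direction and 0.246% called higher. Gene 3 was 1.24 higher in LAP+/OC2- in log2 units (edgeR adjusted p = 0.017, SE 0.23). Genes 1 and 2 differed by 0.78 (SE 0.20, edgeR adjusted p = 0.13) and 1.44 (SE 0.38, edgeR adjusted p = 0.16) and did not pass, and gene 4 differed by 0.046 (SE 0.18, edgeR adjusted p = 1). The call for gene 3 was lost without LAP+ library 1 (adjusted p = 0.052, edgeR) and without LAP+/OC2- library 3 (adjusted p = 0.079, edgeR), and also with only these groups in the fit (adjusted p = 0.094, edgeR) and with the replicate number as a block (adjusted p = 0.059, edgeR). All 4 LAP+/OC2- libraries exceeded all 4 LAP+ libraries for genes 1, 2 and 3, which held for 2.16% of features.

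The steps from LAP+ to LAP+/OC2- were small when set against adult hepatocytes. As a share of the adult mean, LAP+ and LAP+/OC2- stood at 0.868% and 1.49% for gene 1, at 0.331% and 0.885% for gene 2 and at 0.536% and 1.26% for gene 3. Gene 4 stood at 30.7% and 31.7%. The steps came to 0.619%, 0.554%, 0.728% and 1.00% of the adult mean for genes 1 to 4. That of gene 4 lay within the spread of its groups, at 163 ± 15.2 CPM in LAP+ and 168 ± 12.9 CPM in LAP+/OC2- (SD, n = 4). The upstream neighbour, which shares the exon series of gene 1, measured 0, 0, 0 and 0.0501 CPM in LAP+ and 13.6, 13.2, 6.63 and 7.21 CPM in LAP+/OC2-. Its step came to 0.660% of its adult mean, or 0.496% when adult library 2 was left out. That neighbour is no member and was not called between these groups, and no fold is given for it because LAP+ held 1 read in all.

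The make-up of the run is given as a description chosen after the data were seen. Gene 4 gave 26.9%, 34.6%, 26.3% and 26.1% of the summed CPM of the 4 genes in the adult libraries. It gave 94.7%, 97.3%, 94.5% and 94.9% in LAP+, and 91.5%, 87.8%, 91.7% and 91.9% in LAP+/OC2-. In LAP+/OC2+ it gave 60.4%, 62.7%, 61.6% and 61.3%. The ranges of the 4 groups did not overlap. The sum itself was 1875 ± 169.5 CPM for adult, 171 ± 14.05 for LAP+, 185 ± 11.1 for LAP+/OC2- and 21.8 ± 7.01 for LAP+/OC2+ (SD, n = 4 each). Gene 3 held the largest share in adult cells (50.6%) and 3.03% (LAP+), 6.53% (LAP+/OC2-) and 26.4% (LAP+/OC2+) in the fetal groups. These shares are of CPM not scaled by exonic length, so they do not rank the genes within a group. Per kilobase of exon, adult hepatocytes held 279 CPM of gene 4, 207 of gene 1, 148 of gene 3 and 23.7 of gene 2.

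**Figure D3:**
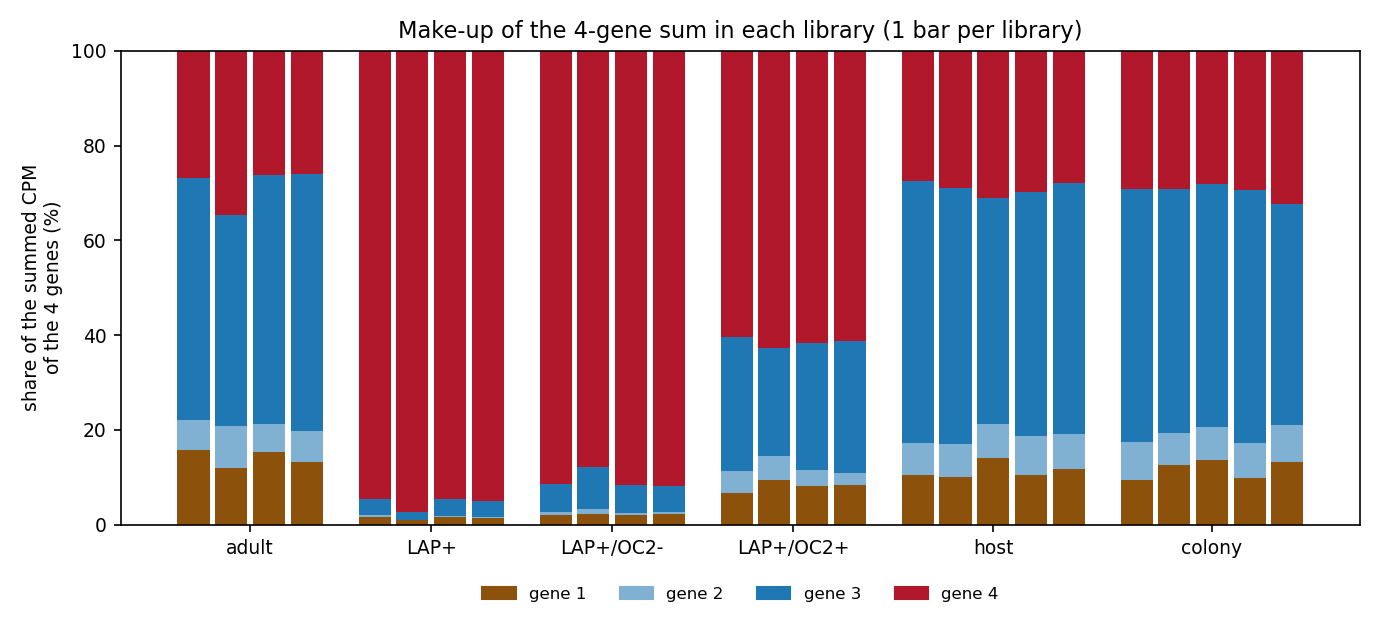
Share of each of the 4 genes in their summed CPM, in percent, with 1 stacked bar per library. Gene 4 fills 87.8% to 97.3% of the bars of LAP+ and LAP+/OC2-, 60.4% to 62.7% of those of LAP+/OC2+, and 26.1% to 34.6% of those of adult hepatocytes. After transplantation it fills 27.5% to 31.2% of the host bars and 28.2% to 32.4% of the colony bars. The stages used different kits and are not compared.

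After transplantation the 4 genes stood in nearly the same proportions in colony and host, with lower levels in colonies of at least 4 of the 5 animals. Gene 4 gave 29.1% ± 1.46 of the sum in host tissue and 29.7% ± 1.58 in colonies (SD, n = 5). Gene 3 gave 52.3% ± 2.96 and 51.3% ± 2.77. The make-up of colony tissue was thus close to that of host tissue within the spread. The colony levels are what chose these genes, so the following values describe the choice.

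For gene 1, host tissue of animals 242, 243, 246, 248 and 249 held 75.8, 88.4, 65.98, 76.5 and 53.9 CPM, and their colonies held 36.0, 69.9, 69.3, 41.0 and 38.4 CPM. For gene 2, host tissue held 49.2, 59.7, 33.3, 58.4 and 33.3 CPM, and colonies held 30.6, 36.8, 34.8, 30.1 and 22.6 CPM. Both genes were lower in the colony of 4 animals and marginally higher in that of animal 246, and host and colony ranges overlapped.

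For gene 3, host tissue held 401, 473, 222, 374 and 241 CPM in the same order of animals, and colonies held 204, 286, 259, 222 and 136 CPM. For gene 4, host tissue held 199.5, 254, 145, 216 and 127 CPM, and colonies held 112, 162, 143, 122 and 94.3 CPM. Gene 3 was higher in the colony of animal 246 alone. Gene 4 was lower in every colony, at -0.025 in log2 units in animal 246.

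The log2 difference of colony from host, averaged over the 5 animals, was -0.55 ± 0.46 for gene 1, -0.57 ± 0.38 for gene 2, -0.61 ± 0.48 for gene 3 and -0.55 ± 0.34 for gene 4 (SD, n = 5). Colonies thus held 68.5%, 67.5%, 65.5% and 68.2% of the host level. The edgeR fit with the animal as a block called all 4 lower, and 0.61% of 22303 features were called lower and 1.17% in either direction. The genes were chosen on this difference, so nothing is read from the calls or from their setting beside that share. Leaving out animal 242, 243, 248 or 249 left 0 of the 4 called, and leaving out animal 246 left all 4. The median difference of the 4 genes was -0.56 and ran from -0.71 to -0.50 over these omissions.

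**Figure D4:**
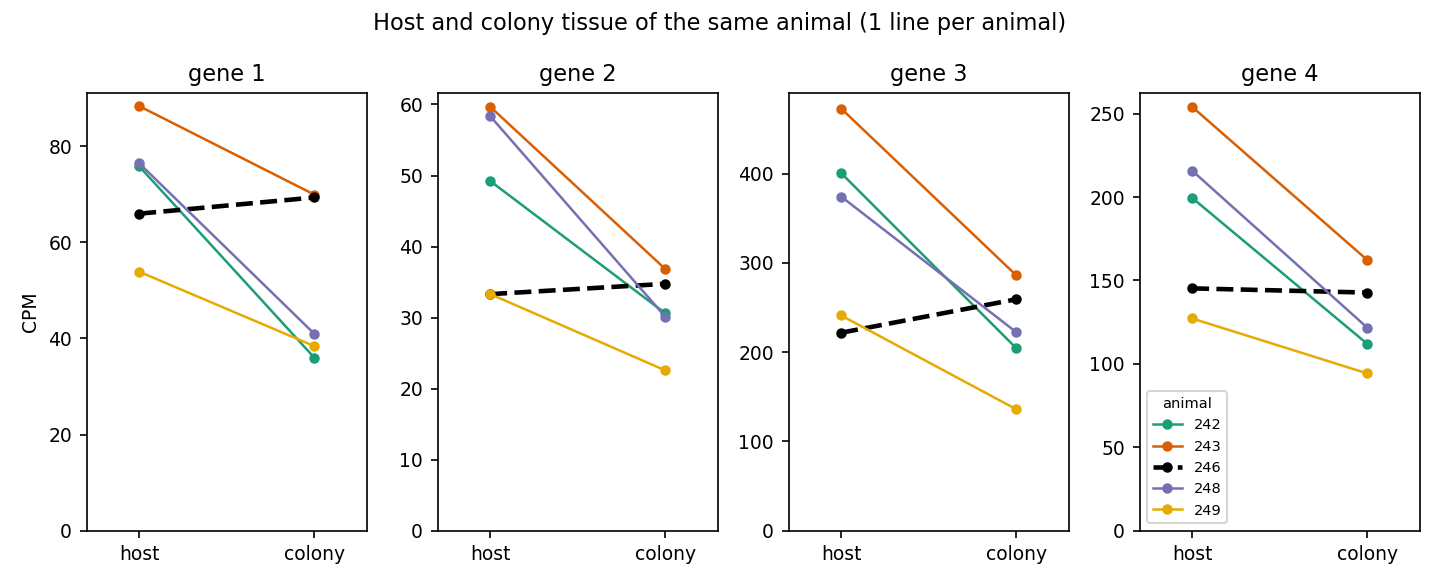
CPM of each of the 4 genes in host and colony tissue, with 1 line joining the 2 libraries of each animal and axes that start at 0. The lines of animals 242, 243, 248 and 249 fall for all 4 genes. That of animal 246 rises for gene 3, from 222 to 259 CPM, and is near level for genes 1, 2 and 4.

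Most well-counted features were also lower in these colonies, although most of all tested features were not. Over all 22303 tested features, the fitted difference was below 0 for 9554, with a median of 0.11. Among 7862 features with a mean of at least 10 CPM after transplantation, the median difference of colony from host was -0.31, -0.14, 0.053, -0.17 and -0.31 in animals 242, 243, 246, 248 and 249 on the log2 scale. Animal 246 was thus the one with a median above 0, as it was for genes 1 to 3. Averaged over animals, 80.3% of the 7862 features were below 0, with a median of -0.17. Of the 7862 features, 2106 had every adult hepatocyte library above all 12 fetal libraries and an adult mean of at least 10 CPM, as the 4 genes had. Of the 2106, 93.8% were below 0, with a median of -0.26. The place of the 4 genes among these features follows from their choice and is not a result. Colony was below host in every animal for 5.68% of all tested features and in at least 4 animals for 24.5%.

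The stretch on either side did not share the fall in fetal cells as a whole. Within 1000000 nt of the window, 47 further features were annotated. Before transplantation 9 of them passed the filter on low counts, and 4 were called lower and 4 higher in the fetal mean, with a median of 0.46. Of all 13818 features tested, 4882 were called lower and 5128 higher, so these counts are nothing unusual. The 4 lower ones included the upstream neighbour and the features at 22724070 and 22937421, which share exon series with members. The feature at 22724070 differed by -4.98 in the fetal mean (edgeR adjusted p = 4.6e-11, SE 0.26), and that at 22937421 by -2.23 (SE 0.49, edgeR adjusted p = 6.5e-04).

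The nearest tested feature downstream (ENSRNOG00000055068, 22706901 to 22707668) was higher in the fetal mean (0.54 in log2 units, SE 0.18, edgeR adjusted p = 0.014), at 2.95 ± 0.75 CPM in adult and 6.14 ± 0.86 CPM in LAP+/OC2+ (SD, n = 4). The feature at 22937421 was also lowest in LAP+/OC2+. LAP+ held 7.60 ± 3.45 CPM and LAP+/OC2- 9.38 ± 2.51 CPM of it, against 0.768 ± 0.453 CPM for LAP+/OC2+ (SD, n = 4). After transplantation 36 of the 47 were tested, and their median difference of colony from host was 0.31, against 0.11 over all features. The 36 include features too sparsely counted to be tested before transplantation, and SEs ran up to 1.66. Those with the smallest SEs, of 0.12 to 0.19, all lay below 0, from -0.45 to -0.05. The median thus does not describe the well-counted neighbours. Several of the closest features had negative differences that did not pass the test, namely -0.38 at 22724070 (SE 0.14, edgeR adjusted p = 0.13), -0.44 at 22937421 (SE 0.19, adjusted p = 0.21) and -1.17 for the nearest tested feature downstream (SE 0.49, adjusted p = 0.19), while that at 22645874 stood at 0.073 (SE 0.85, adjusted p = 0.97). The upstream neighbour differed by -0.45 ± 0.49 between colony and host (SD, n = 5), and its colony was higher in animal 246. No difference between the 4 genes and these neighbours was tested.

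**Figure D5:**
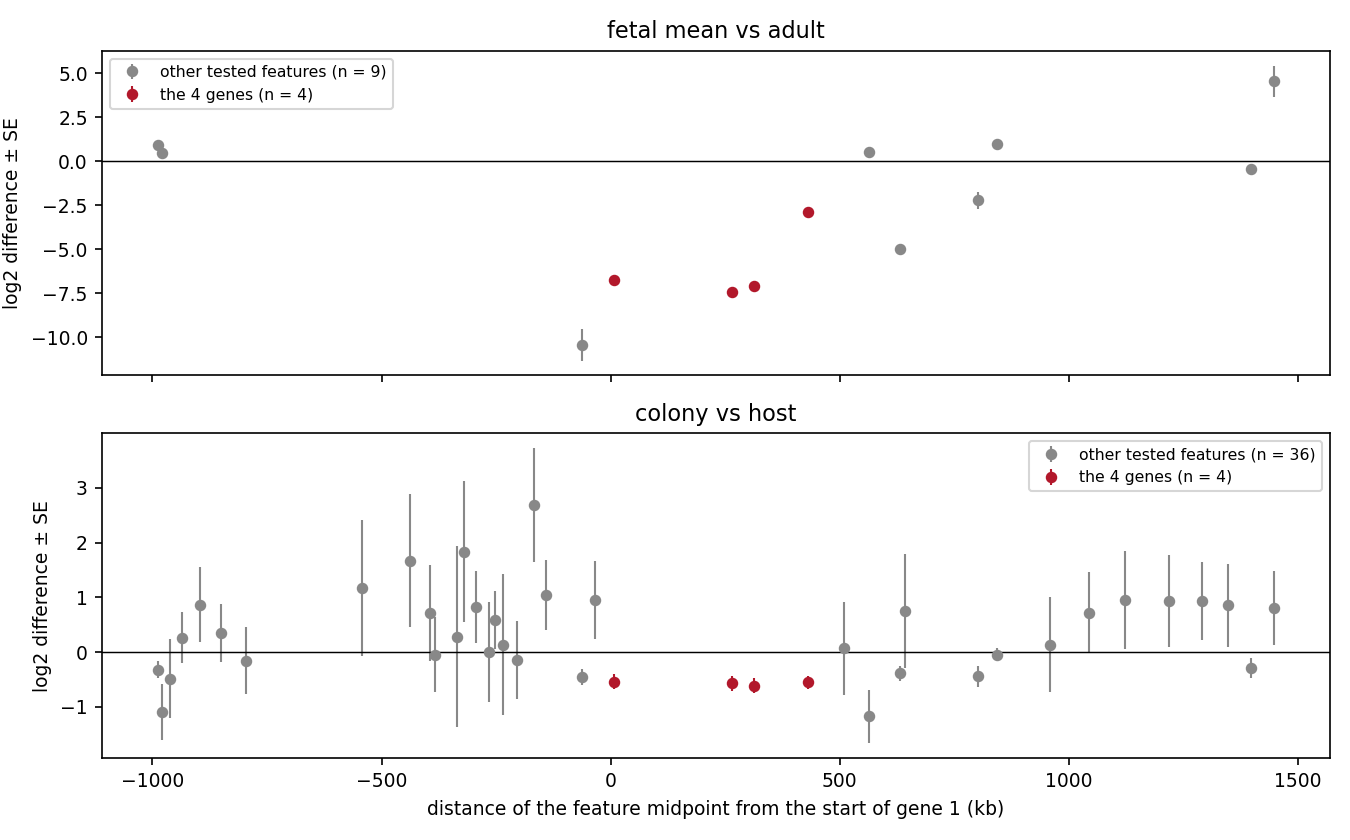
Fitted log2 difference with its SE of each tested feature by distance from the start of gene 1 in kilobases, for the fetal mean against adult and for colony against host. The 4 genes lie at -7.44 to -2.89 in the first panel, where flanking features lie on both sides of 0 (the lowest, the upstream neighbour, held 1 read in LAP+ in all), and at -0.61 to -0.54 in the second.

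Levels of different genes can be compared only per exonic length. In adult hepatocytes, gene 4 held 279 ± 31.1 CPM per kilobase, gene 1 207 ± 37.8, gene 3 148 ± 21.7 and gene 2 23.7 ± 3.89 (SD, n = 4). The ranges of genes 4 and 1, and those of genes 1 and 3, overlapped, and gene 2 lay below all others. In LAP+ the order was the same, at 85.6, 1.80, 0.796 and 0.0784 CPM per kilobase. Host tissue held 98.9, 56.6, 53.4 and 8.56 CPM per kilobase for genes 4, 1, 3 and 2, and colonies held 66.5, 39.98, 34.6 and 5.67. The long exonic unions of genes 2 and 3 lower these values if only some of their exons are used.

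Across the libraries the 4 genes moved together to differing degrees. Over all 26 libraries, with each stage's mean removed, Pearson's r of log2 levels ranged from 0.64 for genes 2 and 4 to 0.99 for genes 1 and 3. Over the 10 libraries after transplantation it ranged from 0.84 for genes 1 and 2 to 0.98 for genes 2 and 4. The points share groups and animals, so these are descriptions. The genes were chosen on the colony-against-host difference in those 10 libraries, so their r there follows in part from the choice. Nothing is read from it, and the r over 26 libraries includes the same 10.

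The feature most like the mean of the 4 genes, among 5952 compared over 26 libraries, lay on chromosome 7 (ENSRNOG00000029179, 123625590 to 123638765) with r = 0.995. Its means were 1110 CPM for adult, 11.9 for LAP+, 17.2 for LAP+/OC2-, 5.71 for LAP+/OC2+, 443 for host and 332 for colony tissue. The next lay on chromosome 3 (ENSRNOG00000007529, 110306067 to 110324084) with r = 0.994, at 41.2 CPM in adult, 1.46 in LAP+, 50.2 in host and 40.8 in colony tissue. Over the 10 libraries after transplantation alone, r was 0.969 and 0.916 for these features. Both were far lower in LAP+ than in adult, as genes 1, 2 and 3 were, whereas gene 4 kept 30.7% of its adult mean. They were picked for the highest r of those compared, so the size of r is not a result.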

How the data were processed

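Raw read counts per annotated feature were deposited by the authors, 1 file per library. The tools named are bcl2fastq 2.17, Trimmomatic 0.36, Subread 1.5.2 (featureCounts) and STAR 2.5.2b, per the submitters' processing notes. The sources used here do not give the genome build, annotation release, strand setting or treatment of reads that fit several places. Kits were RNeasy and NEBNext Ultra for cells, and PicoPure and SMARTer Stranded Pico for captured tissue, per the labels' protocols.

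Each stage was fitted on all its features with edgeR 4.0.16 (R 4.3.3), using TMM scaling, filterByExpr and robust quasi-likelihood tests, with Benjamini-Hochberg adjustment over all tested features and a threshold of 0.05. The 16 libraries before transplantation shared 1 fit without a block. The 10 after had the animal as a block, also in the filter, because the labels give the same animal numbers for host and colony; deviations from group means correlated at -0.21 to 0.29 between libraries of an animal (over 0.1 in 2 of 5). Alternatives were RLE scaling, no filter, a filter of 10 CPM, DESeq2 1.42.0, limma-voom (limma 3.58.1), nuclear features only, the other choice of block, only the groups compared, and leaving out each library or animal. A filter by group alone and nuclear totals without TMM were added after seeing the data. The edgeR fit was tested on simulated data.

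The 4 members and all lists were chosen with earlier results of these data known. Named features were the 4 members, the nearest tested feature on each side, and the 2 features with the highest Pearson r to the mean log2(CPM + 1) deviation of the members, among features with a mean of at least 10 CPM. Features sharing exon-length series were named after the files were seen. Differences within an animal over all features used CPM + 0.1. Marker and pathway lists need symbols and were not used. Floors of 3 counts use total counts without TMM and cover counting error only.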

Additional observations from a re-analysis of the deposited data

Results flagged for a closer look

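In groups of 4 or 5 libraries, 6 of 48 sets of values had a highest or lowest library whose gap to its neighbour exceeded Dixon's 95% critical value, where chance gives about 1 in 20. Of these, 4 concern the share of gene 4 in the summed CPM of the 4 genes. Adult library 2 was highest at 34.6%, against 26.1% to 26.9% in the other adult libraries. LAP+ library 2 was highest at 97.3%, against 94.5% to 94.9%. LAP+/OC2- library 3 was lowest at 87.8%, against 91.5% to 91.9%. The colony of animal 249 was highest at 32.4%, against 28.2% to 29.3% in the other colonies. The other 2 concern neighbours. The upstream neighbour of gene 1 stood at 0.050 CPM in LAP+ library 4 and at 0 in the other LAP+ libraries, a difference of 1 read. The nearest tested feature downstream stood at 7.52 CPM in the host tissue of animal 248, against 2.33 to 3.57 CPM in the other hosts.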

How the results depend on the processing

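All 4 genes were called lower than adult in each of the 4 comparisons with adult, and the same count of 3 was called between LAP+/OC2+ and LAP+/OC2-, under every alternative run. Between LAP+/OC2+ and LAP+, 1 gene was called lower (gene 4), but 2 were called under some alternatives. Gene 1 was also called lower with no filter (-0.61), without LAP+/OC2+ library 2 (-0.71) and without LAP+ library 2 (-0.59). Gene 2 was called higher with DESeq2 (1.07), with nuclear features only and no TMM (1.35) and without LAP+/OC2+ library 4 (1.32). The count was thus 1 to 2 when single libraries were left out. There the difference of gene 3 turned from 0.13 to -0.037 with no filter and -0.028 with limma-voom, and ran from -0.076 (without LAP+/OC2+ library 1) to 0.30 when single libraries were left out, with -0.066 without LAP+ library 2. Between LAP+/OC2- and LAP+, 1 gene was called, but 3 with DESeq2, 0 with only the 2 groups in the fit, and 0 to 1 when single libraries were left out. The difference of gene 4 there turned from 0.046 to -0.013 with nuclear features only and no TMM. Between colony and host, where the choice of members used the comparison, 4 were called, but 0 with the stricter filter or the filter by group alone, and 0 to 4 when single animals were left out. The median over the 4 genes stayed negative in every alternative run. Apart from the numbers of samples and features that these alternatives change by construction, the cause was not tested.

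With the replicate block before transplantation, 0 genes were called between LAP+/OC2- and LAP+ (gene 3 at an edgeR adjusted p of 0.059), and the block changed no other call. These numbers are not stated to mark a shared animal. The best match of a library in another group had its own number in 8 of 42 cases, and 2 of 21 pairs correlated over 0.1. Host and colony libraries of the same animal also correlated over 0.1 in only 2 of 5 cases. The check therefore cannot tell whether libraries of equal number share an origin. With no replicate block after transplantation, 0 of the 4 were called between colony and host. Depth limits gene 2, which rested on 3 to 11 reads a library in LAP+ and LAP+/OC2+.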

Other observations

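The exon series of gene 1 also occurred in 5 features of chromosome 9 and in 1 of chromosome 1, which are no members. With the upstream neighbour, 6 of these 7 were tested before transplantation. In the fetal mean 6 of 6 were called lower, as were 4882 of all 13818 features tested. Their median was -7.69 on the log2 scale against 0.056 over all features. Apart from the most abundant, the tested features of chromosome 9 held 0 to 3 reads in each fetal library and 18 to 154 in each adult library. They could pass the filter on low counts only through the adult libraries, which fixed the direction of their difference. The count of 6 and the median, which rests in part on them, are therefore descriptions only. The feature on chromosome 1 (ENSRNOG00000019342, 198100586 to 198104109) held 544 ± 89.4 CPM for adult hepatocytes, 238 ± 54.1 for LAP+, 229 ± 56.3 for LAP+/OC2- and 29.3 ± 19.3 for LAP+/OC2+ (SD, n = 4). It was thus lowest in LAP+/OC2+, as gene 4 was. The mean of gene 1 was also lowest there, but its difference from LAP+ did not pass the test. As CPM of nuclear features without TMM, gene 1 held 3.26 in LAP+/OC2+ and 3.12 in LAP+. The most abundant of those on chromosome 9 (ENSRNOG00000011269, 4930818 to 4978892) measured 171, 37.1, 201 and 212 CPM in adult libraries 1 to 4, so library 2 was lowest there, as for the upstream neighbour. It measured 0.419 ± 0.252 CPM in LAP+ and 1.47 ± 0.566 CPM in LAP+/OC2- (SD, n = 4). These features were looked at after the data were seen, and no difference from the 4 genes was tested.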
